A study of Mus musculus with 32 samples.

Results

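Striated muscle-specific RIP140-null (strNrip1-/-) hearts that had undergone no surgery were compared with control hearts by RNA-Seq, using every row of the authors' deposited list for this contrast. The list holds 291 genes, out of 10115 rows and 6212 distinct gene symbols over the 6 lists of the series. The series profiled 32 mouse samples in 10 groups, and the unstressed heart contrast used 3 strNrip1-/- and 3 control samples. The other 5 lists, which cover gastrocnemius and soleus muscle of the same line and a cardiac-specific line after sham or heart failure surgery, serve here only for context.

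Mice of both groups carried floxed *Nrip1* alleles (Nrip1 f/f). The knockout mice also carried Cre recombinase under the muscle creatine kinase (MCK) promoter, which is active in heart and skeletal muscle, whereas the littermate controls carried no Cre, so that a difference made by Cre itself and one made by loss of RIP140 cannot be told apart. All were male, 8 weeks old and fasted for 4 hours, and the ventricles were collected in the late morning. The floxed allele was on a C57BL/6J background and the Cre mice were C57BL/6NJ. The labels do not say whether the hearts and muscles came from the same animals.

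RIP140, encoded by *Nrip1*, is a corepressor that binds nuclear receptors such as the estrogen-related receptors (ERRs) and peroxisome proliferator-activated receptors and recruits enzymes that silence their target genes. These receptors turn on genes for fatty acid oxidation, the citric acid cycle and oxidative phosphorylation, on which the adult heart relies for ATP. RIP140 is best known in fat and skeletal muscle as a brake on oxidative metabolism.

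Each listed gene carries 2 values, a log2 fold change of strNrip1-/- against control that the authors shrank toward 0, and a false discovery rate (FDR, the p-value adjusted over genes by DESeq2). A gene entered the list at an FDR below 0.05 and a change of at least 1.2-fold. These 2 values summarize 3 hearts against 3, and the value in each heart was not analysed here. The spread between hearts therefore enters only through the FDR, and the depth of each library is unknown. A gene that is not listed missed a threshold or was not tested, and was therefore not shown to be unchanged. In whole ventricle, fewer cells of a type and less RNA per cell cannot be told apart.

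The targeted gene, *Nrip1*, was not listed in strNrip1-/- heart. Its position on chromosome 16 is 76287400 to 76373827 (GRCm38), and 0 listed genes lay within 10 Mb of it. *Ckm*, whose promoter drives Cre in this line, was not listed either. *Nnt*, a mitochondrial NADPH-producing transhydrogenase whose gene differs between C57BL/6J and C57BL/6NJ, was higher by 0.81 on the log2 scale (FDR 0.0197). *Nnt* was also higher in gastrocnemius (0.95), soleus (0.96) and knockout hearts of the cardiac line after heart failure surgery (1.24). In control hearts of that line, whose Cre mice were C57BL/6J, it was lower after that surgery than after sham surgery (-0.86). The part of strain background in these and the other values was not tested. In the cardiac line the deposited lists gave *Nrip1* as higher in hearts labelled csNrip1-/-, by 1.41 after sham surgery and 0.86 after heart failure surgery, which goes against the label. These values are gene totals, which may also count reads from outside the floxed exon. No values of single exons were analysed, and the reason for the rise was not tested. The study also measured RIP140 by immunoblot in both lines and *Nrip1* by qRT-PCR in strNrip1-/- tissues, and it describes both lines as RIP140-deficient. Those measurements were not analysed here. Comparisons with that line below follow its labels. Because the lists hold differences and no levels, the heart label could not be checked against marker levels. Of 10 cardiomyocyte and 13 skeletal muscle fiber markers, 0 were listed.

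More genes rose than fell in strNrip1-/- heart. Of the 291 genes, 190 were higher and 101 lower, a share of 65.3% higher, which is the background for the direction of every gene group below. The higher genes changed by less at the median, with a log2 fold change of 0.55 (1.46-fold) against -0.76 (1.69-fold) for the lower genes. At least a 2-fold change was reached by 42 of the higher genes (22.1%) and by 35 of the lower genes (34.7%). The smallest FDRs were on the higher side. All 10 genes with an FDR below 1e-10 were higher, and 98 higher against 42 lower genes had an FDR below 0.01. At the edge of the fold threshold stood *Emd*, *Asb8* and *Etfb*, each at 0.26, and at the edge of the FDR threshold stood *Cluh* (0.0498), *Rnaset2b* (0.0493) and *Herpud1* (0.0490). The values of genes just outside either threshold are not in the list.

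**Figure D1:**
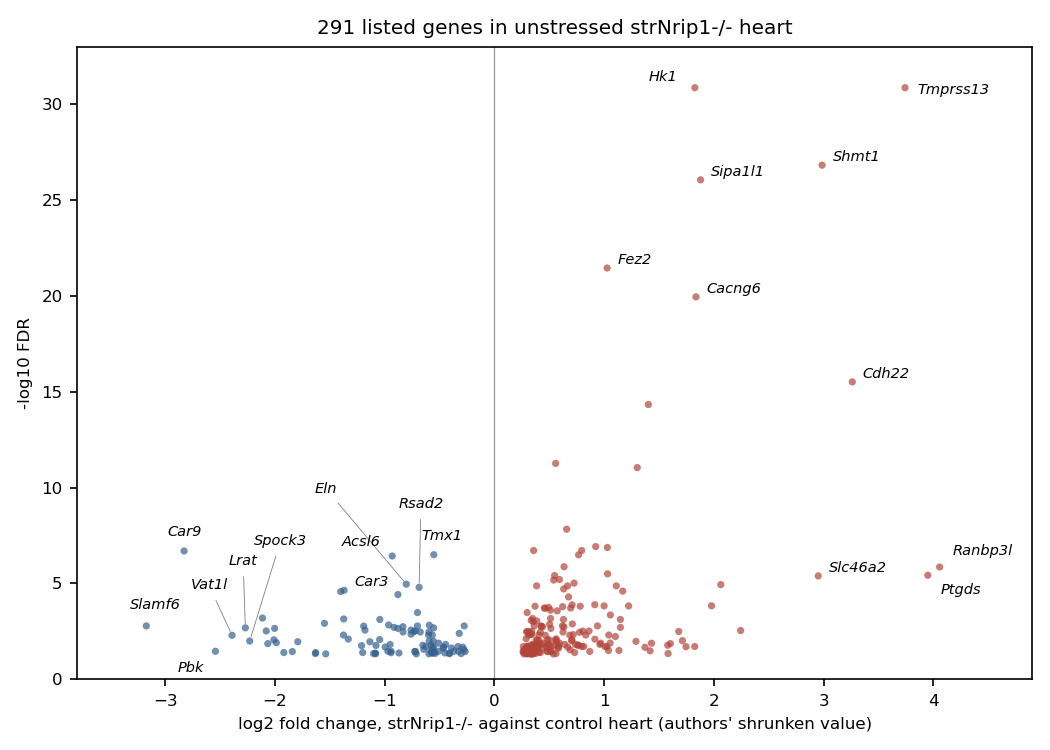
Each point is 1 of the 291 listed genes, with the shrunken log2 fold change (strNrip1-/- against control heart, 3 samples each) on the horizontal axis and -log10 of the FDR on the vertical axis, higher genes in red and lower genes in blue. The 10 genes with an FDR below 1e-10 all lie to the right of 0, whereas the lower genes with the largest changes, *Slamf6*, *Car9* and *Pbk*, lie near the bottom of the plot.

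The genes with the firmest rise span metabolism, membranes and adhesion. *Tmprss13*, a membrane-anchored serine protease, was higher by 3.74 on the log2 scale, or 13.4-fold (FDR 1.34e-31). *Hk1*, the hexokinase isoform that commits glucose to metabolism in most tissues outside adult muscle, was higher by 1.83 with the same FDR. *Shmt1*, the cytosolic serine hydroxymethyltransferase that feeds the folate cycle, was higher by 2.99, or 7.93-fold (FDR 1.48e-27). These 3 led the list by FDR. *Sipa1l1*, a Rap GTPase-activating protein, rose by 1.88 (FDR 8.62e-27), *Fez2* by 1.03 (FDR 3.46e-22) and *Cacng6*, a gamma subunit of voltage-gated calcium channels, by 1.84 (FDR 1.11e-20). The next 4 by FDR were *Cdh22*, a cadherin (3.26), *Rom1* (1.40), *F11r*, a junctional adhesion molecule (0.56), and the guanine nucleotide exchange factor *Arhgef28* (1.3), with FDRs from 3.05e-16 to 9.09e-12.

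The rise that was greatest in size was that of *Ranbp3l*, a Ran-binding protein family member, at 4.06 (16.7-fold, FDR 1.41e-06). *Ptgds*, the lipocalin-type prostaglandin D2 synthase, followed at 3.95 (15.5-fold, FDR 3.80e-06). These 2 changes were larger than that of *Tmprss13* but had much larger FDRs. The remaining genes among the 15 greatest rises were the membrane transporter *Slc46a2* (2.95), the endophilin *Sh3gl2* (2.24), the pterin dehydratase *Pcbd1* (2.06), the iron-siderophore carrier *Lcn2* (1.98), *Fstl4* (1.83), the ketone body enzyme *Bdh1* (1.75) and the glycine methyltransferase *Gnmt* (1.71).

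The genes that fell most in size did so with weaker statistics. *Slamf6*, a receptor of lymphocytes, was lower by -3.17 (FDR 0.00168). *Car9*, a carbonic anhydrase known for its induction by hypoxia, was at -2.83 and had the smallest FDR of any lower gene, 2.05e-07. The mitotic kinase *Pbk* was at -2.54 (FDR 0.0354). *Lrat*, which stores retinol as esters, was at -2.27, and *Ptger3*, a prostaglandin E2 receptor, at -2.01. *Vat1l* (-2.39), the testican *Spock3* (-2.23), the cyclin *Ccnf* (-2.11), the histone gene *Hist1h2ap* (-2.08) and *Wscd2* (-2.06) completed the 10 greatest falls. Ordered by FDR instead, *Car9* was followed by *Tmx1*, a thioredoxin-related protein of the endoplasmic reticulum (-0.55, FDR 3.21e-07), and *Acsl6*, an acyl-CoA synthetase (-0.93, FDR 3.75e-07). *Eln*, the gene for elastin, fell by 0.80, the muscle carbonic anhydrase *Car3* by 1.37, *Apol6* by 1.40 and the pacemaker channel *Hcn4* by 0.88, with FDRs from 1.11e-05 to 3.86e-05.

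Of 852 genes in 23 pathway lists drawn up for this tissue, 78 were among the 291 genes, 50 of them higher and 28 lower. The other 213 genes were in none of the lists. Over all annotated coding genes, 287 of 21911 were listed (1.31%), and the count of each gene list is to be read against that share. The gene lists were chosen with earlier results of these data known, so a count above that share is not evidence of enrichment. Counts are given below without a test, since unlisted genes have no value. The share of the genes tested is not known, and it may be higher than 1.31%, since genes that the heart does not express are among the 21911.

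The listed genes of fuel oxidation were higher with 1 exception. In fatty acid oxidation, 6 of 43 genes rose and 1 fell. The risers were the fatty acid transporter *Slc27a1* (0.44), the carnitine palmitoyltransferase *Cpt1b* that admits long-chain fatty acids to the mitochondrion (0.34), the trifunctional protein subunit *Hadha* (0.32), *Ech1* (0.46), *Echdc2* (0.39) and the electron transfer subunit *Etfb* (0.26). All 6 rose less than the median higher gene, and the gene that fell was *Acsl6*. In the citric acid cycle and its associated enzymes, 7 of 39 genes rose and 0 fell. They were the dehydrogenases *Idh2* (0.54), *Idh3g* (0.34) and *Ogdh* (0.62), with *Suclg2* (0.46), *Sdhc* (0.29), the malic enzyme *Me3* (0.30) and the aspartate aminotransferase *Got1* (0.63). Branched-chain amino acid and ketone metabolism had 4 of 28 higher and 0 lower. *Bdh1*, which interconverts the ketone bodies, stood well above the others at 1.75, over *Bckdha* (0.56), its kinase *Bckdk* (0.41) and *Mccc1* (0.38). Of 83 nuclear genes of the respiratory chain and ATP synthase 1 was listed, *Cox6a2* of complex IV (0.32), and of 13 mitochondrially encoded genes 0 were listed. The solute carriers *Slc25a3*, which brings phosphate into the mitochondrion (0.35), and *Slc25a23* (0.40) were the 2 listed of 38 in that family. The rises were small, so that at a change of at least 1.5-fold the fatty acid oxidation genes that were higher fell from 6 to 0 and those of the citric acid cycle from 7 to 2.

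Glucose metabolism had 5 of 48 genes higher and 1 lower. *Hk1* at 1.83 led, followed by the monocarboxylate transporter *Slc16a7* (1.01), the glycerol 3-phosphate dehydrogenase *Gpd1* (0.94), *Pgm5* (0.80) and the glycolytic enzyme *Eno1* (0.63). *Stbd1*, a glycogen-binding protein, was lower (-0.70). Of 37 genes of triglyceride and lipid droplet metabolism, *Agpat3* rose (0.35) and the lipid droplet coat protein *Plin1* fell (-2.0), and of 14 acyl-CoA thioesterases 0 were listed. *Plin1* is also 1 of the adipocyte markers, of which 2 of 10 were lower and 0 higher (*Cfd*, -1.79, was the other). The part of fat cells in these values was not tested.

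Most contractile and electrical genes were not listed, and those that were listed were mostly higher. Of 51 sarcomere and Z-disc genes, 5 rose and 0 fell. These were *Myot*, the Z-disc protein myotilin (1.15), the M-band protein *Myom3* (0.70), *Dag1* of the dystroglycan complex (0.46), the alpha-actinin *Actn2* (0.41) and *Svil* (0.30). Outside that list, the myosin light chain *Myl1* (-0.41) and the Z-disc protein *Pdlim3* (-0.63), named after their values were seen, were lower. In calcium handling and ion channels, 7 of 61 rose and 2 fell. *Cacng6* led at 1.84, with *Strit1*, which encodes the small membrane protein DWORF that relieves inhibition of the calcium pump, at 1.11 and the potassium channel subunit *Kcne1* at 0.96. The sodium channel subunit *Scn4b* was at 0.67, the potassium channel regulator *Abcc9* at 0.55, and *Prkaca* (0.34) and *Gnas* (0.29) of cyclic AMP signaling rose less. *Hcn4*, which encodes a channel of the pacemaker current, fell (-0.88, FDR 3.86e-05).

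Most genes in the transcription factor lists were not listed in heart, and listed factors outside those lists are not counted here. Of 29 cardiac transcription factors, *Hand2* (0.68) and *Gata4* (0.36) rose. Of 45 nuclear receptors and coregulators, *Nr4a1* rose (1.60) and the retinoic acid receptor *Rarg* fell (-0.57), and no ERR or peroxisome proliferator-activated receptor was listed. Among 24 immediate early genes, 4 rose and 0 fell, namely *Nr4a1*, *Arc* (1.58), *Sik1* (1.43) and *Fosl2* (0.69). Immediate early genes encode regulators that are transcribed within minutes of a stimulus. Of 18 circadian clock genes 0 were listed. In the glucocorticoid and fasting list of 21 genes, *Lcn2* was the 1 gene listed. In the list of 25 fetal and stress genes it was the folate enzyme *Shmt1*, and no natriuretic peptide was listed.

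**Figure D2:**
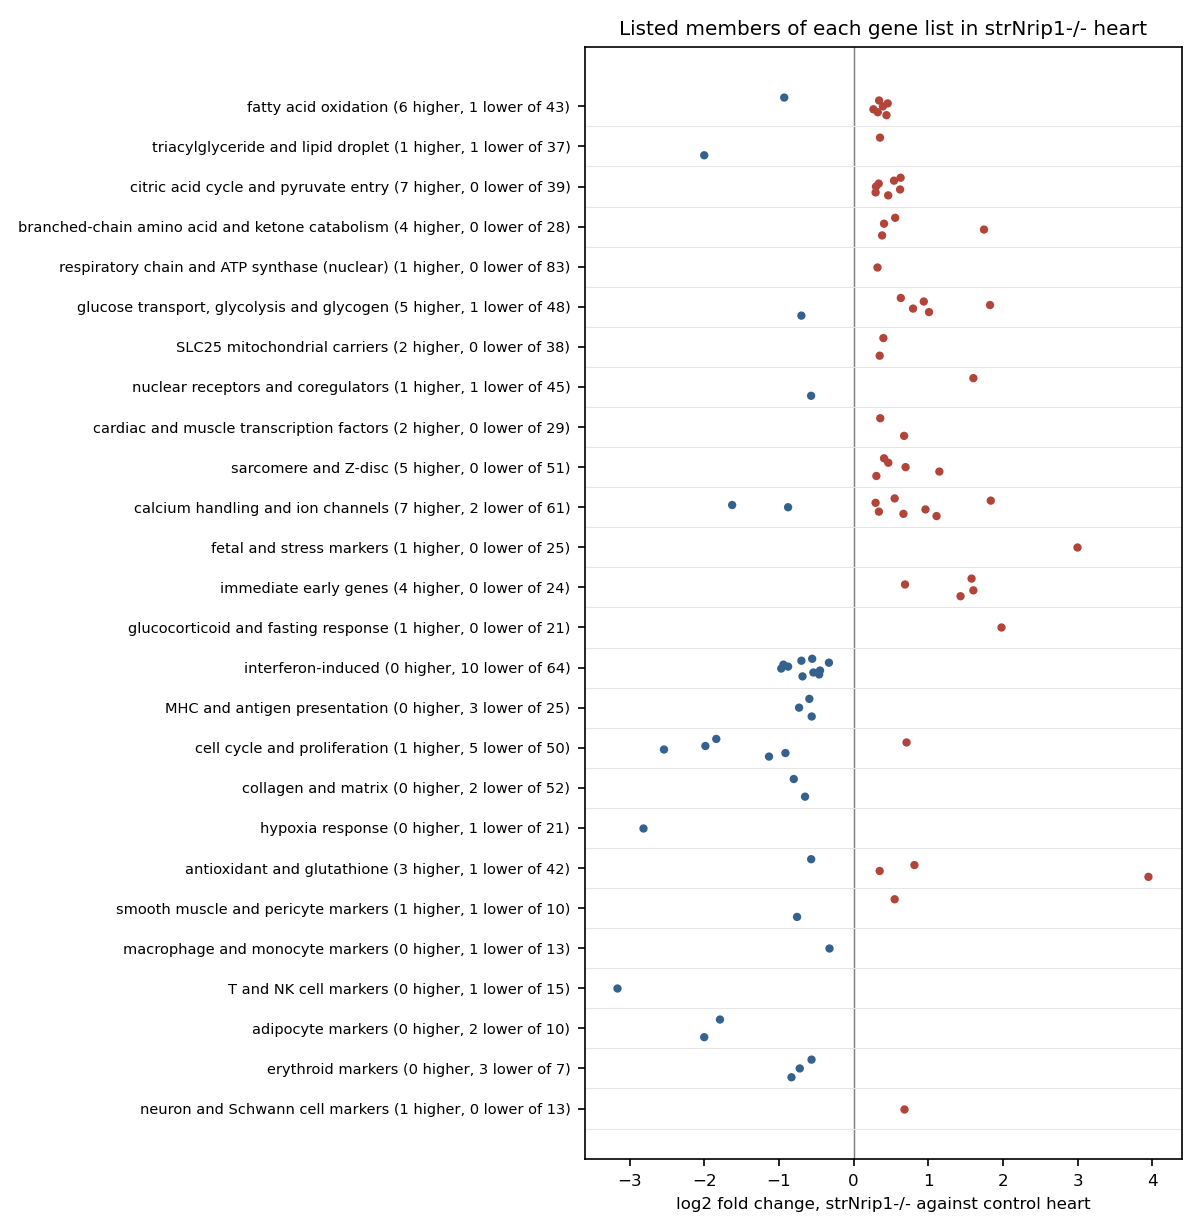
Log2 fold change (strNrip1-/- against control heart, authors' shrunken value) of each listed member, by pathway or marker list, with a line at 0, higher members in red and lower members in blue. All listed members of the citric acid cycle and sarcomere lists lie right of 0, whereas all 10 interferon-induced members and all 3 antigen presentation members lie left of 0.

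Interferon-induced genes stood on the other side. Of 64 genes, 10 were lower and 0 higher, where 65.3% of all listed genes were higher, and the median of the 10 was -0.62. The RNA-binding antiviral effectors *Ifit3* (-0.97), *Ifit1* (-0.94) and *Ifit2* (-0.88) fell most. The interferon-inducible GTPases *Gbp7* (-0.70), *Gbp2* (-0.56) and *Irgm2* (-0.54) came next, with the antiviral enzyme *Rsad2* at -0.68 (FDR 1.63e-05). *Parp14* (-0.46), *Ifi203* (-0.33) and *Irf9*, a subunit of the transcription factor that acts downstream of type I interferon (-0.45), fell least. *Ifit*, *Gbp* and *Ifi* genes lie in families of close copies among which Salmon divides reads, so the values of single members are uncertain. Of the 10 lower genes, 5 remained at a change of at least 1.5-fold, 0 at 2-fold and 3 at an FDR below 0.01. Genes of antigen presentation by major histocompatibility complex (MHC) class II fell as well. The class II chains *H2-Aa* (-0.73) and *H2-Eb1* (-0.56) and the invariant chain *Cd74* (-0.59) were the 3 lower genes of 25 in the MHC list, and 0 were higher. Beside these values, 1 of 13 macrophage and monocyte markers was lower (*Lyz2*, -0.33), 1 of 15 T and NK cell markers was lower (*Slamf6*, -3.17), and 0 of the B cell and neutrophil markers were listed. Leukocyte genes outside the marker lists, named after their values were seen, were lower too, namely the pan-leukocyte phosphatase *Ptprc* (-0.60), the phagocyte oxidase subunit *Cybb* (-0.87), the lysosomal protease *Ctss* (-0.58), the platelet-activating factor receptor *Ptafr* (-0.71) and the B cell factor *Pax5* (-1.92). The part of blood and immune cell content in the interferon and MHC values was not tested.

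The promoters of the interferon-induced genes are shown because most of them hold the short core of the element through which interferon-activated factors bind DNA. The letters GAAANNGAA were sought on both strands (TTCNNTTTC on the other) in the RefSeq promoters (GRCm38.p6, from 250 bases before to 50 after each start). Promoters were found for 9 of the 10 listed interferon-induced genes, and 7 of the 9 held the core (77.8%). The share was 9.76% over all 27025 genes with a promoter, 21.4% (18 of 84) over the lower genes and 6.67% (10 of 150) over the higher genes. The 18 include these 7 genes. Without the 10 listed members of the 64-gene list, the share of lower genes was 14.7% (11 of 75). Only members of that list were taken out, so other genes induced by interferon may be among the 11. The share over members of that list that were not listed in heart was not counted. A match is not evidence of binding. The core is in capitals in these windows of 29 bases, each written on the strand of the gene. Only 1 window is shown per gene, and *Ifit1* and *Ifit3* held further matches.
Ifit1 (chr19:34640770-34640798, plus strand): aactgcaggcTTCAGTTTCactttccagt
Ifit3 (chr19:34583398-34583426, plus strand): ttaagtctgtTTCAGTTTCtactttcctc
Gbp2 (chr3:142620595-142620623, plus strand): ctcttttagtTTCACTTTCactgtcttaa
Gbp7 (chr3:142530274-142530302, plus strand): tgtgtgcagtTTCAGTTTCagttctccat
Irgm2 (chr11:58214903-58214931, plus strand): tccaggaactGAAACTGAAagctgttcgg
Rsad2 (chr12:26456553-26456581, minus strand): tggtccaactTTCATTTTCagaaaacaga
Ifi203 (chr1:173942509-173942537, minus strand): aagagctgggGAAATCGAAagctatgaac
*Ifit1*, *Ifit3* and *Gbp7* carried the same 9 letters, TTCAGTTTC, and *Irgm2* carried their reverse complement. Outside these genes, TTCAGTTTC was also in promoters of *Arl6ip1*, a lower gene, and *Pcp4l1*, a higher gene. The ERR half-site TCAAGGTCA was in 1 of 150 promoters of higher genes (0.667%), 1 of 84 of lower genes (1.19%) and 0.466% of all genes. The 1 match on the lower side was in *Acsl6*, the fatty acid oxidation gene that fell. For the MEF2 sites CTATTTATA and CTAAAAATA the shares were 0.667%, 2.38% and 1.08%, and for the cyclic AMP element TGACGTCA they were 3.33%, 2.38% and 2.03%. These windows do not reach distant enhancers.

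Of the proliferation, matrix and erythroid genes, those that were listed were lower with 1 exception. Of 50 cell cycle genes, 5 fell and 1 rose. The fallers were *Pbk* (-2.54), the spindle motor *Kif11* (-1.99), the mitotic kinase *Cdk1* (-1.84), *Ube2c* (-1.13) and the ribonucleotide reductase subunit *Rrm2* (-0.91), whereas *Cenpa*, the histone of centromeres, was higher (0.71). Of 52 collagen and matrix genes, *Eln* (-0.80) and *Postn*, a matrix protein of activated fibroblasts (-0.65), fell and 0 rose, and 0 of the fibroblast markers were listed. Of 7 erythroid markers, the 3 globins *Hbb-bt* (-0.83), *Hbb-bs* (-0.72) and *Hba-a2* (-0.56) were lower. Globin transcripts in ventricle come from red cells in retained blood, and how far blood content moved with the groups cannot be told from these lists. The smooth muscle markers split, with *Acta2* lower (-0.76) and *Abcc9* higher, and of the neuron and Schwann cell markers *Mal* was higher (0.67). Of 21 hypoxia genes, *Car9* was the 1 listed, and it was lower. Of 42 antioxidant genes, *Nnt*, *Prdx6* (0.35) and *Ptgds* rose and *Gstt1* fell (-0.57).

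To place the heart changes among the other knockouts, the 291 genes were looked up in the other 5 lists, whose libraries are all different from those of the heart contrast. In strNrip1-/- gastrocnemius, 93 were listed (32.0% of the heart list and 4.73% of the gastrocnemius list), 84 in the same direction and 9 in the opposite one. In strNrip1-/- soleus, 55 were listed (18.9% and 9.35%), 49 in the same and 6 in the opposite direction. In csNrip1-/- hearts 103 were listed after sham surgery (35.4% and 4.98%), 96 in the same direction and 7 opposite. After surgery that joins constriction of the aortic arch with a small infarct (TAC/MI), a model of heart failure, 99 were listed (34.0% and 5.53%), 88 in the same direction and 11 opposite. The background shares of higher genes in these 4 lists were 53.1%, 59.8%, 53.4% and 46.3%. In the same order the lists hold 1968, 589, 2071 and 1792 rows, where 21911 coding genes are annotated. A longer list overlaps more by its length alone, and the overlaps were not tested. The 2 csNrip1-/- contrasts are from 1 line and the 2 muscles from the line of the strNrip1-/- hearts, so the lists are not independent of each other in their alleles.

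The sizes of shared changes were compared next. Of the 84 genes shared in direction with gastrocnemius, 62 changed less in heart, with median sizes of 0.55 in heart and 0.73 in gastrocnemius. Of the 96 shared with csNrip1-/- sham hearts, 68 changed more in strNrip1-/- heart, with medians of 0.71 and 0.50. The split was closer to even for soleus (28 smaller and 21 larger in heart, medians 0.59 and 0.68) and for csNrip1-/- hearts after TAC/MI (45 smaller and 43 larger, medians 0.71 and 0.67). These differences were not tested, and shrinkage was applied to each contrast on its own. The metabolic genes were shared most often with gastrocnemius. The 17 higher genes of fatty acid oxidation, citric acid cycle, branched-chain and ketone metabolism ranged from 0.26 to 1.75 in heart. In gastrocnemius 15 of them were also higher, in soleus 9, and 8 in each csNrip1-/- heart list, and 0 were lower in any of the 4. Over the whole gene lists, gastrocnemius had 33 of 43 fatty acid oxidation genes and 48 of 83 respiratory chain genes higher, against 6 and 1 in heart. The gastrocnemius list is also much longer, with 1045 higher genes of 1968, against 190 of 291 in heart. How far list length accounts for these counts was not tested.

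**Figure D3:**
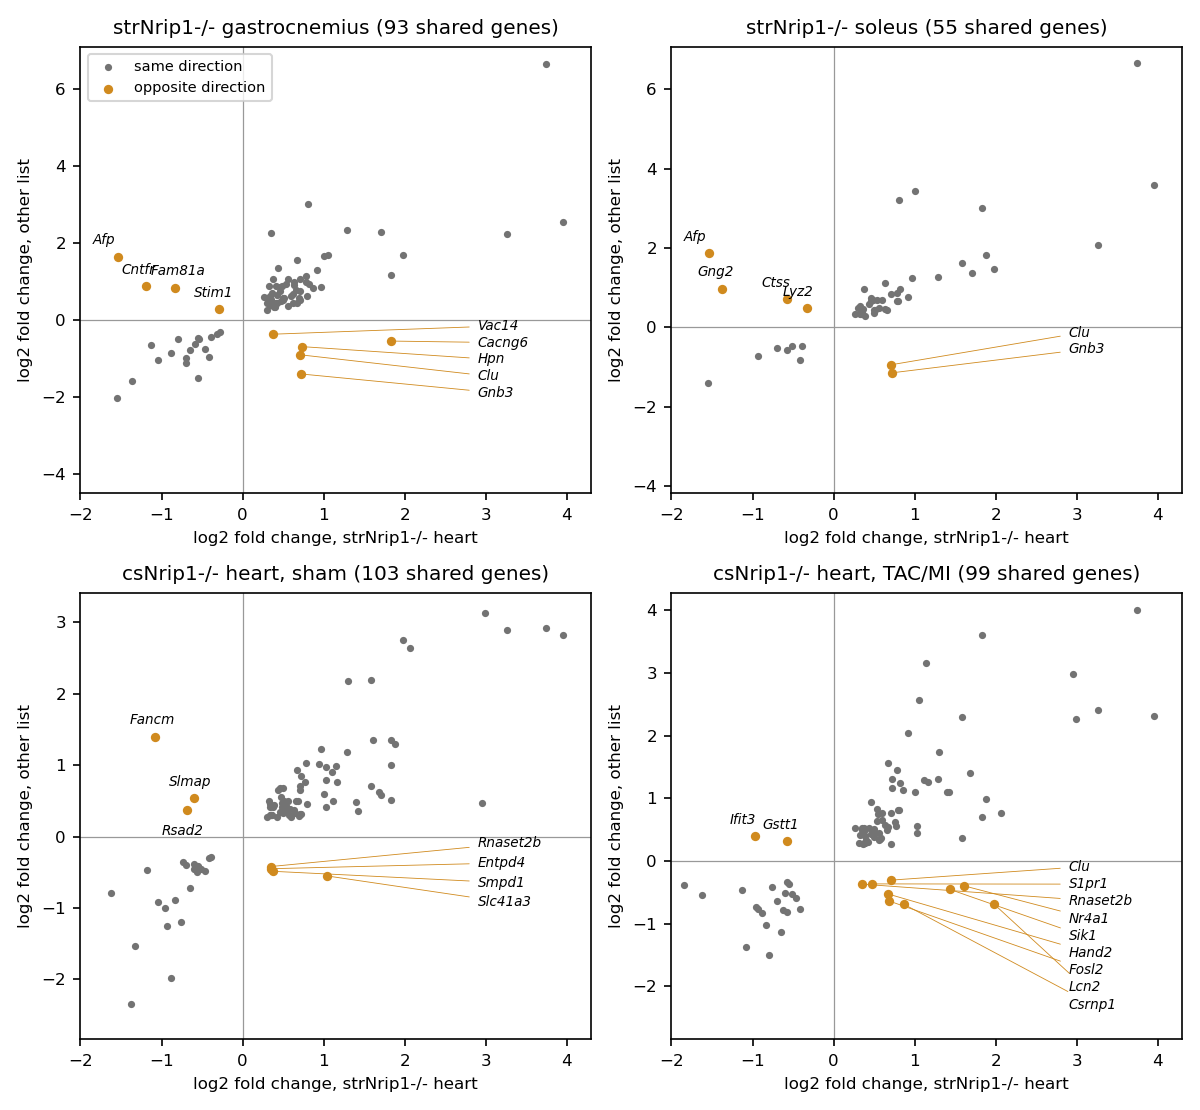
Log2 fold change in strNrip1-/- heart (horizontal axis) against that in each of the other 4 knockout lists (vertical axis) for genes listed in both, with the genes of opposite direction in orange and named. Most points have the same sign on both axes, with 9 opposite genes in gastrocnemius, 6 in soleus, 7 after sham surgery and 11 after TAC/MI.

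A group of 24 genes moved in the same direction in strNrip1-/- heart, gastrocnemius, soleus and sham csNrip1-/- heart, 21 of them higher and 3 lower. Of these 24, *Tmprss13* was the greatest in both muscles, at 6.66 in each, against 3.74 in heart and 2.92 in csNrip1-/- sham heart. *Ptgds* (3.95 in heart) was at 2.56 in gastrocnemius, 3.58 in soleus and 2.83 in csNrip1-/- sham heart, and *Cdh22* (3.26) was at 2.24, 2.08 and 2.89. *Hk1* rose by 1.83 in heart, 1.16 in gastrocnemius, 3.0 in soleus and 1.0 in csNrip1-/- sham heart. The group also held 6 of the metabolic genes, *Slc27a1*, *Cpt1b*, *Hadha*, *Ech1*, *Idh2* and *Suclg2*, of which each rose more in gastrocnemius than in heart. *Slc16a7*, at 1.01 in heart, ranged from 0.59 in csNrip1-/- sham heart to 3.43 in soleus. The 3 lower genes were *Stbd1*, the filamin-binding gene *Rflnb* (-0.39 in heart) and the myosin light chain *Myl1* (-0.41 in heart).

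**Figure D4:**
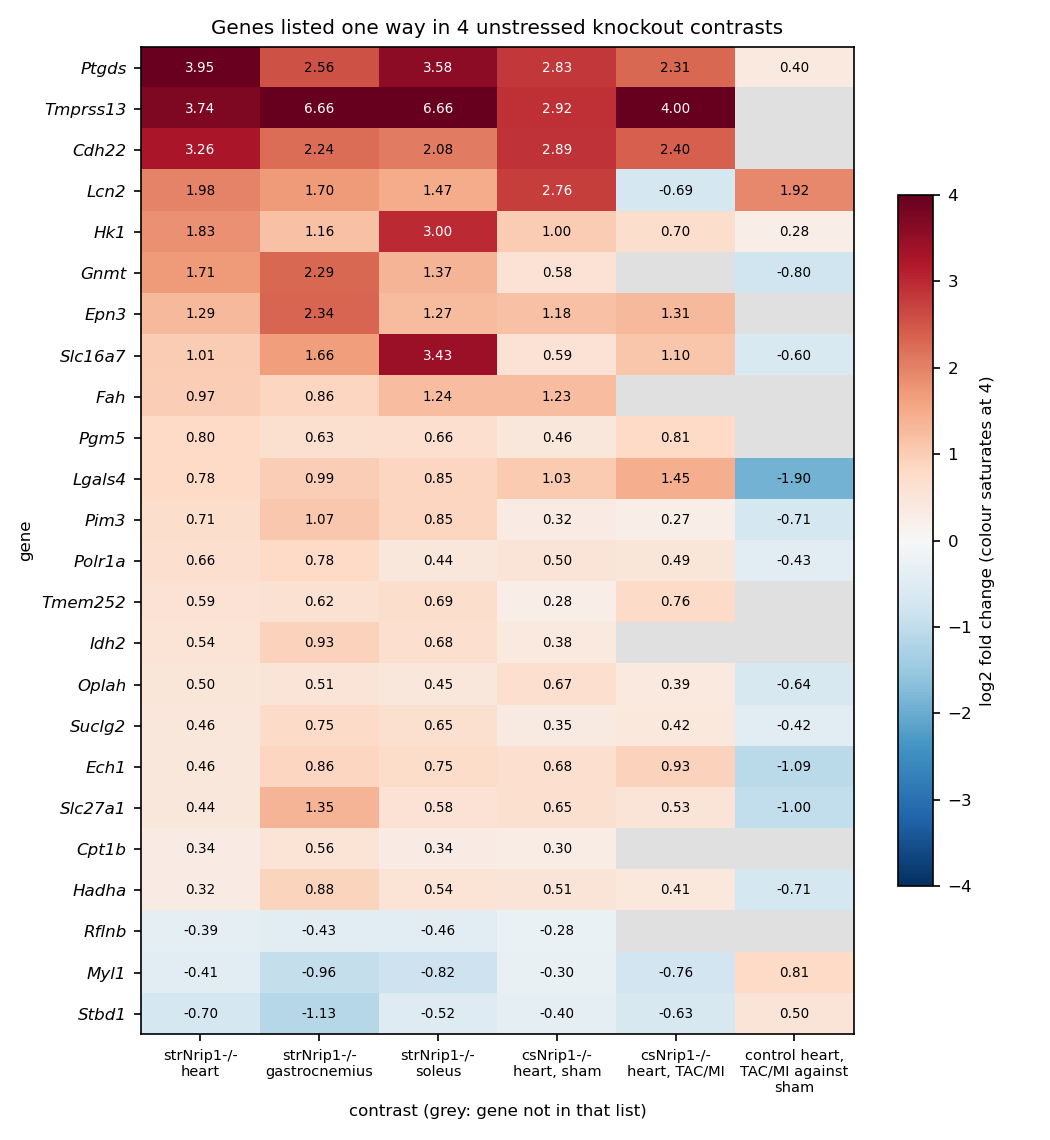
Grid of the 24 genes that changed in 1 direction in strNrip1-/- heart, gastrocnemius, soleus and sham csNrip1-/- heart (rows, ordered by the heart value) over the 6 lists (columns), each cell colored and printed with the log2 fold change, red for higher and blue for lower, and gray where the gene was not in that list. *Tmprss13* has the deepest red in the muscles, the 3 bottom rows *Rflnb*, *Myl1* and *Stbd1* are blue in the first 4 columns, and most cells of the TAC/MI control column are blue or gray.

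Other heart genes were in no other knockout list, 109 of the 291. These were 60 of the higher genes (31.6%) and 49 of the lower genes (48.5%), a difference that was not tested. Both counts depend on the lengths of the other lists. Among the greatest changes, the falls were not shared and most rises were. Of the 10 greatest falls, from *Slamf6* to *Ptger3*, 0 were in any of the other 5 lists. Of the 15 greatest rises, 12 were in another knockout list, and the other 3 were *Ranbp3l*, *Sh3gl2* and *Bdh1*. All 10 higher genes with the smallest FDRs were in another knockout list, 9 of them in the heart direction wherever listed. The exception was *Cacng6*, which was higher in csNrip1-/- hearts (0.51 after sham surgery and 3.60 after TAC/MI) and lower in gastrocnemius (-0.54).

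Few of the 10 interferon-induced genes were shared. In gastrocnemius 5 of the 64 were lower and 0 higher, and *Gbp7* (-0.99) and *Irgm2* (-0.48) were lower in both tissues. In soleus 1 was higher and 1 lower, in csNrip1-/- sham hearts 3 were higher and 4 lower, and in csNrip1-/- hearts after TAC/MI 9 were higher and 1 lower. These 4 lists hold 1968, 589, 2071 and 1792 rows, where 21911 coding genes are annotated. The counts were not tested against those lengths. *Rsad2* (0.37, sham) and *Ifit3* (0.39, TAC/MI) were higher in csNrip1-/- hearts. The 3 MHC class II genes were lower in csNrip1-/- sham hearts too, by -0.35 for *H2-Aa*, -0.49 for *H2-Eb1* and -0.46 for *Cd74*. Of all 25 genes of the MHC list, 4 were higher and 5 lower in those hearts. After TAC/MI, 4 were higher and 0 lower in csNrip1-/- hearts. The 3 globins were in no other knockout list.

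Genes of opposite direction differed by tissue. *Clu*, a secreted chaperone, was higher in heart (0.71) and in csNrip1-/- sham heart (0.71) but lower in gastrocnemius (-0.90) and soleus (-0.94). *Gnb3*, a G protein beta subunit, was higher in heart (0.72) and in both csNrip1-/- lists, and lower in gastrocnemius (-1.40) and soleus (-1.15). *Afp*, the fetal plasma protein alpha-fetoprotein, was lower in heart (-1.54, FDR 0.0484) and higher in gastrocnemius (1.65) and soleus (1.87). *Cntfr*, a cytokine receptor subunit, was at -1.19 in heart and 0.88 in gastrocnemius. *Fam81a* was at -0.83 in heart and 0.84 in gastrocnemius, and it was lower in both csNrip1-/- lists. The other opposite genes in gastrocnemius were *Hpn*, *Stim1* and *Vac14*, and in soleus *Gng2*, *Ctss* and *Lyz2*.

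In csNrip1-/- hearts the opposite genes after TAC/MI included the immediate early genes. *Nr4a1* (-0.40), *Sik1* (-0.45) and *Fosl2* (-0.64) were lower there, where they were higher in unstressed strNrip1-/- heart, whereas *Arc* was higher in both (2.29 after TAC/MI). *Hand2* (-0.53), *Lcn2* (-0.69), *Csrnp1* (-0.69), *S1pr1* (-0.37), *Clu* and *Rnaset2b* were also lower after TAC/MI, and *Gstt1* was higher. After sham surgery the opposite genes were *Slc41a3*, *Entpd4*, *Smpd1*, *Rnaset2b*, *Slmap*, *Rsad2* and *Fancm*, the last at -1.08 in strNrip1-/- heart and 1.40 in csNrip1-/- heart.

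The heart genes were also set beside the effect of TAC/MI in control hearts of the cardiac line, where 53.6% of 3404 listed genes were higher. Of the 291 genes, 123 were in that list (42.3% and 3.62%), 31 in the same and 92 in the opposite direction. Of the 17 higher metabolic genes, 13 were lower after TAC/MI and 1 higher, *Bdh1* (1.13). *Ech1* was at 0.46 in strNrip1-/- heart and -1.09 after TAC/MI, *Slc27a1* at 0.44 and -1.0, and *Hadha* at 0.32 and -0.71. The calcium handling and ion channel genes *Cacng6* (-3.17), *Scn4b* (-1.64), *Strit1* (-1.31) and *Abcc9* (-0.79) were lower after TAC/MI and higher in strNrip1-/- heart. Among the genes that fell in strNrip1-/- heart, *Postn* (2.79), *Ube2c* (2.43) and *Eln* (1.69) were higher after TAC/MI, as were the 3 globins, by 0.43 to 0.62. *Lcn2* (1.92), *Nr4a1* (1.08) and *Myot* (0.95) rose in both.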

How the data were processed

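RNA-Seq libraries came from 3 strNrip1-/- and 3 control ventricles. The authors quantified reads with Salmon 1.3.0 on GRCm38 and tested genes with DESeq2 1.36.0, versions per the labels' processing notes. The deposited log2 values are fold changes shrunken by the authors with ashr, and the deposited p-values are their adjusted p-values (FDR). The files hold these authors' comparisons alone, which were used because the contrast is defined by them. Whether libraries were stranded was not given in the sources used here. Salmon splits reads among near-identical copies, so values of *Mup3*, *Mup7*, globin, *Gbp*, *Ifit*, H2, *Slfn9*, *Rnaset2b*, *Ccl21b*, *Hist1h2ap* and *Gvin1* genes are uncertain.

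Rows were counted by direction, joined by symbol across lists (the row with the smallest FDR where a symbol repeated) and matched to GENCODE vM21 (289 of 291 symbols) and to RefSeq promoters (150 of 190 higher and 84 of 101 lower genes) in pandas 2.3.3 and numpy 2.4.6 (Python 3.11.15), with plots from matplotlib 3.10.9. No test was added, and the counting code was tested on simulated lists. The members and gene lists were chosen with earlier results of these data known. Named genes were the 15 greatest rises and 10 greatest falls apart from unnamed gene models, the 10 smallest FDRs in each direction, all listed members of the gene lists, the 3 genes nearest each threshold, genes shared in direction with gastrocnemius, soleus and csNrip1-/- sham heart, genes opposite in another knockout list, and *Nrip1*, *Nnt*, *Ckm* and *Nkx2-5*. *Nkx2-5* was not listed in strNrip1-/- heart. A gene that this rule selects is not reported here. Alternatives were a fold change of at least 1.5 or 2, an FDR below 0.01 and leaving out gene models.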

Additional observations from a re-analysis of the deposited data

How the results depend on the processing

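The list shortened unevenly with the threshold. Higher genes numbered 190 as deposited, 87 at a change of at least 1.5-fold, 42 at 2-fold and 98 at an FDR below 0.01. Lower genes numbered 101 as deposited, 68 at a change of at least 1.5-fold, 35 at 2-fold and 42 at an FDR below 0.01. The share of higher genes was 56.1% at 1.5-fold, 54.5% at 2-fold and 70.0% at an FDR below 0.01. Gene group counts shrank with the fold threshold too, to 0 higher of fatty acid oxidation and 5 lower of the interferon-induced genes at 1.5-fold, and to 0 at 2-fold for both and for the citric acid cycle. At an FDR below 0.01 they were 4 higher of fatty acid oxidation, 4 higher of the citric acid cycle and 3 lower of the interferon-induced genes. Of the genes shared with TAC/MI in control hearts, the same-direction share was 34.9% at 1.5-fold. No paired analysis was possible because the lists carry no per-sample values, and leaving out single replicates was not possible for the same reason. With 3 samples a group, an unknown depth and shrinkage toward 0, a gene missing from the list was not shown to be unchanged.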

Other observations

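Other groups of listed genes were named after their values were seen, so their direction is a description of the genes named and says nothing of other genes with the same role. Of genes with roles in glycine and folate one-carbon metabolism, *Shmt1* was at 2.99, *Gnmt* at 1.71 and the sarcosine oxidase *Pipox* at 1.58 on the log2 scale in strNrip1-/- heart. *Pipox* was also higher in csNrip1-/- sham heart (2.19). The listed lipocalins that were higher were *Ptgds*, *Lcn2* and the major urinary proteins *Mup3* (1.37) and *Mup7* (1.03), the last 2 of which were in no other list. Of genes with roles in ribosome production, the RNA polymerase I subunit *Polr1a* was at 0.66, *Utp20* at 0.57 and the helicase *Dhx37* at 1.03. The ephrin receptors *Ephb3* (1.06) and *Epha4* (0.76) were also higher.

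On the lower side, 3 genes of the retinoid pathway fell, *Lrat* (-2.27), the retinoic acid hydroxylase *Cyp26b1* (-1.55) and the receptor *Rarg* (-0.57). *Cyp26b1* was also lower in gastrocnemius (-2.02) and soleus (-1.41). The transcription factor *Shox2*, which is required in the developing sinus node, was lower (-1.21) beside the pacemaker channel gene *Hcn4*. *Hcn4* was lower in gastrocnemius (-0.86) and in csNrip1-/- sham heart (-1.99) as well, whereas *Shox2* was in no other list.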
